A study of Mus musculus with 38 samples.

Results

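Between the lymphoid progenitor (LP) stage and Phase 1 of T cell development, 12142 sites gained a peak of the histone acetyltransferase p300 with no RUNX1 peak on them. They were chosen by the peak calls themselves: a site was taken if it held a Phase 1 p300 peak that shared no base with an LP p300, LP RUNX1 or Phase 1 RUNX1 peak. They made up 24.7% of the 49116 Phase 1 p300 peaks. Since presence of p300 in Phase 1, its absence in LP and the absence of RUNX1 defined these sites, those 3 features were not tested. The other Phase 1 p300 peaks were 8174 new sites with a Phase 1 RUNX1 peak, 109 new sites with an LP RUNX1 peak only, 1791 constant sites (p300 in both stages) without RUNX1 and 26900 constant sites with RUNX1. In the other direction, 3040 of the 36182 LP p300 peaks were LP-specific and free of RUNX1.

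The study asked how Notch signaling redirects RUNX factors and their partners when progenitors enter the T cell pathway. All cells came from mouse Cas9-LP lines, which were set up from fetal liver progenitors that lack Ebf1, the pioneer factor of the B lineage, and carry Cas9 at Rosa26. LP cells grew on OP9 bone marrow stroma, and Phase 1 and Phase 2 cells came from coculture with OP9-DLL4, the same stroma expressing the Notch ligand DLL4. The chromatin immunoprecipitation sequencing (ChIP-seq) data covered 38 samples in 19 groups of 2 replicates. There were 34 ChIP samples, summarized as 17 peak lists, and 4 input samples of LP and Phase 1. Besides p300, the lists hold RUNX1, Med12 and CTCF of LP and Phase 1, the intracellular domain of Notch1 (Notch1-IC) of LP, Phase 1 and Phase 2, Med12 of Phase 1 cells with the retroviral guides sgCont or sgCbfb, and RUNX1 of LP cells with sgCont or sgCTCF and of Phase 1 cells with sgCont or sgMed12. A cell line without Ebf1 limits these data as a model of a thymic progenitor. The sources used here describe no removal of stromal cells before ChIP.

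p300 acetylates histones and other proteins at enhancers and promoters, and its presence away from promoters is widely used as a mark of active enhancers. Med12 belongs to the kinase module of Mediator, the complex that links enhancer-bound factors to RNA polymerase II. CTCF is a zinc finger protein that anchors chromatin loops with cohesin. Notch1-IC is released from the membrane when a Notch ligand binds and acts on DNA with RBPJ, and RUNX factors, which bind DNA as dimers with Cbfb, are needed from the first steps of the T lineage.

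The sequences below are the central 200 bp of the sites that carry the main patterns. They are from the plus strand of the mouse reference (RefSeq, GRCm38.p6, the coordinates of mm10), and capitals mark the factor-binding strings searched below. The first 2 are among the 3 highest-scored sites. The Csnk1g2 site (chr10:80622038-80622237, promoter of a casein kinase gene, with a CREB string and an EBF string in capitals) also carried Med12 in both stages. The Pop7 site (chr5:137502795-137502994, promoter of a ribonuclease P subunit gene, with an E protein string) had neither Med12 nor CTCF.
Csnk1g2: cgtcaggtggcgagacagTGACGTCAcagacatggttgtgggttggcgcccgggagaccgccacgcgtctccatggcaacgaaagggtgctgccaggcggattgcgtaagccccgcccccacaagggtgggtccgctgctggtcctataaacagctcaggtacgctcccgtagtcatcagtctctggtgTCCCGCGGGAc
Pop7: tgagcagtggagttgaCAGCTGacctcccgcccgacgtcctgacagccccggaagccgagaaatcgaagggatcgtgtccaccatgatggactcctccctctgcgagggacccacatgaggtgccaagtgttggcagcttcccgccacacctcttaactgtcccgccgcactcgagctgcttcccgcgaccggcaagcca

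The next 3 are the highest-scored sites with a TEAD, an RBPJ and a GATA string, respectively. The Vgll4 site lies in intron 2 of 4 of the gene of a TEAD cofactor (chr6:114889023-114889222) and had Med12 and CTCF in Phase 1. The B3gnt2 site (chr11:22693416-22693615, intergenic) holds AP-1, RBPJ and RUNX strings. The Clic1 site (chr17:35048473-35048672) is intergenic and had neither Med12 nor CTCF.
Vgll4: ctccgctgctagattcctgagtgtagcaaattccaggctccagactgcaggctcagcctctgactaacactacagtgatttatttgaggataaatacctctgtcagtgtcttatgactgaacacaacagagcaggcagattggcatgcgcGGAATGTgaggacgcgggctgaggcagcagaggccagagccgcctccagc
B3gnt2: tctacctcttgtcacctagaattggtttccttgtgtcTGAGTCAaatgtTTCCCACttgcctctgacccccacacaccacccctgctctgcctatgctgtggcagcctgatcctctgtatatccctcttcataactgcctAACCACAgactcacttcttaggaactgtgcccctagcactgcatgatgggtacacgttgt
Clic1: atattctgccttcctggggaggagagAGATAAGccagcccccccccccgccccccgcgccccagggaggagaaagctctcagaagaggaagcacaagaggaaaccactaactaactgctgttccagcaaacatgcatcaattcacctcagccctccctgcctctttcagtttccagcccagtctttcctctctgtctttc

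A further 4 were chosen after their values were seen, because each shows 1 pattern described below. The Rnf157 site (chr11:116419043-116419242, intergenic) is the highest-scored one that has both Phase 2 Notch1-IC and an RBPJ string, and it also holds a RUNX string. The Dcaf11 site (chr14:55557120-55557319, intergenic) is the highest-scored one with Phase 1 CTCF and a CTCF string. The Ccn1 site (chr3:145649996-145650195) is in the promoter of a TEAD target gene of stromal cells and holds a TEAD string. The Lgals3bp site (chr11:118379348-118379547, intergenic) adjoins a Phase 1 RUNX1 peak and holds 2 AP-1 strings and a RUNX string.
Rnf157: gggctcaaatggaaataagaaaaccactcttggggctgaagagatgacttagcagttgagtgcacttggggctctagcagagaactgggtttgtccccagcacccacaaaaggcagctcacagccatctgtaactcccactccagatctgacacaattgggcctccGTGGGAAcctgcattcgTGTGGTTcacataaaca
Dcaf11: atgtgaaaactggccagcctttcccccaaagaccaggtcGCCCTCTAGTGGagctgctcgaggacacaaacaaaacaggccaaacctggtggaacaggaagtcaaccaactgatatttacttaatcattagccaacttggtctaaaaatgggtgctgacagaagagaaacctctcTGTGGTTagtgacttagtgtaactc
Ccn1: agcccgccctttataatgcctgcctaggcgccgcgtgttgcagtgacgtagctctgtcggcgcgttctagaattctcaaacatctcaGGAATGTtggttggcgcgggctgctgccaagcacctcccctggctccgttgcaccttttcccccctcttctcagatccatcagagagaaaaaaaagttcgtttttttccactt
Lgals3bp: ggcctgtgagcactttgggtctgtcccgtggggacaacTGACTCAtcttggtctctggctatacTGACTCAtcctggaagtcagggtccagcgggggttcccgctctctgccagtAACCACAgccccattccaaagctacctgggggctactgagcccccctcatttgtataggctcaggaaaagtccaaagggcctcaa

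Most of the new sites without RUNX1 were weak peaks. The score that the peak caller wrote for each peak, which begins at 15 in these lists and whose scale is not given in the sources used here, had a median of 23.7 at these sites (interquartile range 18.4 to 33.9, highest 601.0). The median was 40.2 at the new sites with RUNX1, 27.0 at the constant sites without RUNX1, 73.3 at the constant sites with RUNX1 and 45.1 over all Phase 1 p300 peaks. When all Phase 1 p300 peaks were cut into 5 equal classes by score, the new sites without RUNX1 made up 56.6% of the lowest class, 38.7% of the second, 20.9% of the third, 6.29% of the fourth and 1.11% of the highest. They were thus found mainly near the calling limit, where a peak in fewer cells and a weaker peak in each cell cannot be told apart. Each comparison below is also given with classes matched on score where that changed its direction or its side of the threshold. The study's methods state a read depth per sample, but the lists do not hold the number of reads behind each peak. Each list pools its 2 replicates, so no spread between replicates can be given. The confidence intervals (Wilson, 95%) and Fisher's exact tests below therefore treat peaks as units and cover counting error only, and peaks are not replicate cultures. All p-values are from exact tests, two-sided and adjusted with the Benjamini-Hochberg method over 21 tests.

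The sites lay away from RUNX1 and LP p300 peaks in most cases, but the strongest did not. The median gap to the nearest Phase 1 RUNX1 peak was 12.4 kb, to the nearest LP RUNX1 peak 18.9 kb and to the nearest LP p300 peak 16.0 kb. Of all 12142 sites, 1065 (8.77%) had a peak of at least 1 of these 3 lists within 1 kb, as did 64 of the 100 highest-scored and 9 of the 10 highest-scored sites. The Csnk1g2 site, with the highest score, missed a Phase 1 RUNX1 peak by 30 bp, an LP RUNX1 peak by 26 bp and an LP p300 peak by 40 bp. At the edge of the rule, the Lgals3bp site (score 45.2) adjoined a RUNX1 peak with a gap of 0 bp, the Pigw site (71.5) had a gap of 3 bp and the Gm8013 site (21.7) also 3 bp. Just outside the rule, p300 peaks nearest to Gm13293 (score 30.9), Trio (15) and Akap6 (19.5) shared 1, 3 and 4 bp with a RUNX1 peak. Among the highest-scored sites, then, the label "without RUNX1" often meant a neighbouring RUNX1 peak rather than none. With no peak of the 3 lists within 1 kb, 11077 sites remained, led by Clic1 (246.8), a chloride channel gene, Arid5a (241.2), Vgll4 (235.5), Pim1 (211.6), a kinase gene, and 1700108F19Rik (198.8), a rule added after seeing the data.

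Med12 was present at 29.0% of the new sites without RUNX1 in Phase 1, against 86.2% of the new sites with RUNX1. In counts, 3517 of 12142 sites (95% interval 28.2 to 29.8%) and 7042 of 8174 sites (85.4 to 86.9%) had a Phase 1 Med12 peak, an odds ratio of 0.0655 (0.0609 to 0.0706), with a Fisher's exact p too small to be represented. Over all Phase 1 p300 peaks the share was 72.8%. The gap was present in each score class. At sites without RUNX1 the share with Med12 was 10.2% in the lowest class, 28.9% in the second, 68.1% in the third, 65.4% in the fourth and 42.2% in the highest. At new sites with RUNX1 it was 66.4, 80.7, 92.9, 97.4 and 97.5% in the same order. For sites with no RUNX1 or LP p300 peak within 1 kb the classes had 9.97, 28.8, 71.8, 74.6 and 50.0%, the last from 20 of 40 sites, so the lower share in the highest class was there as well. Matching on score class left the odds ratio against the new sites with RUNX1 at 0.0868.

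**Figure D1:**
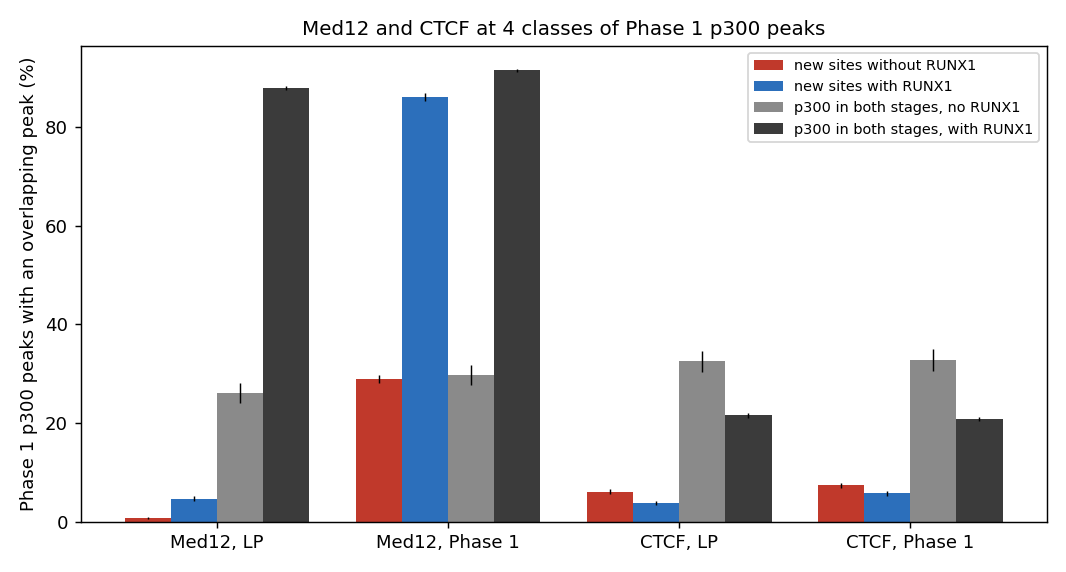
Share of Phase 1 p300 peaks (y axis, %) that overlap a Med12 or CTCF peak of LP or Phase 1, for 4 classes of p300 peak; bars are shares and error bars are 95% Wilson intervals over peaks. At the new sites without RUNX1, Med12 was found at 29.0% in Phase 1 and 0.684% in LP, and CTCF at 7.35% and 6.10%.

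**Figure D2:**
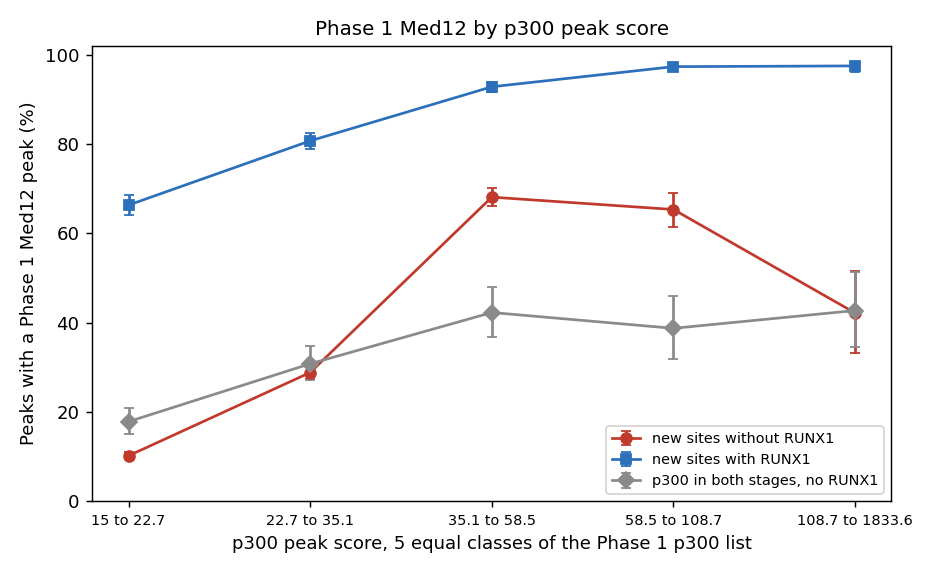
Share of Phase 1 p300 peaks with a Phase 1 Med12 peak (y axis, %) in 5 equal classes of p300 score (x axis, lowest and highest score of each class), with 95% Wilson intervals over peaks. The new sites without RUNX1 run from 10.2% in the lowest class to 68.1% in the third, and stay below the new sites with RUNX1 in all 5.

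Against the constant sites without RUNX1, the share with Med12 did not differ past the threshold before scores were considered and was higher once they were. There, 532 of 1791 sites (29.7%, 27.6 to 31.9%) had Phase 1 Med12, an odds ratio of 0.965 for the new sites (0.866 to 1.08; Fisher's exact p = 0.522, adjusted p = 0.548). With classes matched on p300 score the odds ratio was 1.18 (adjusted exact p = 0.00393), and among peaks with a score of at least 30 the shares were 59.8% and 41.0%, an odds ratio of 2.14 (adjusted exact p = 2.74e-21). The direction of this comparison thus depended on the score.

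The Med12 found at these sites was almost entirely of Phase 1. LP Med12 peaks lay on 83 of the sites (0.684%), against 4.64% of the new sites with RUNX1, 26.0% of the constant sites without RUNX1, 88.0% of the constant sites with RUNX1 and 50.1% of all Phase 1 p300 peaks. Of the 83, 47 had Med12 in both stages and 36 in LP only. Among the 3506 sites with Med12 of 1 stage only, 3470 (99.0%) had it in Phase 1. The LP-specific p300 sites without RUNX1 showed the opposite order: of 733 with Med12 of 1 stage only, 55 (7.50%) had it in Phase 1 (odds ratio 1188, 774 to 1823, Fisher's exact p too small to be represented). The odds ratio was 504 with classes matched on score and 5404 at a score of at least 30. So Med12 and p300 calls changed in the same direction at sites without RUNX1, both where p300 was gained and where it was lost. Med12 peaks at the new sites were themselves low, with a median score of 19.8 against 29.3 at the new sites with RUNX1, and the sites that had Med12 had a higher median p300 score (36.1) than those that did not (21.2).

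Among the 5 highest-scored sites with Med12 in Phase 1 and not in LP were those at Pou2f1 (p300 score 299.3, Med12 score 133.7), which encodes the octamer factor Oct-1, Nlrp4f (242.7 and 63.2), Ptpa (242.2 and 105.2), which encodes an activator of protein phosphatase 2A, and Vgll4 (235.5 and 95). Pou2f1 and Ptpa sites were in promoters, 0.645 kb before and 0.074 kb after the annotated start. Other sites in the top 10 had no Phase 1 Med12: Pop7 (317.2), Tubb4b (307.9), a tubulin gene, B3gnt2 (273.5), Mettl6 (262.3) and Clic1 (246.8). The B3gnt2 site had a Med12 peak in LP (112.1) and CTCF in both stages (131.5 in Phase 1, 113.0 in LP).

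In Phase 1 cells given guides, Med12 peaks were rarely found at these sites. With sgCont, 64 of the 12142 sites (0.527%) had a Med12 peak, against 10.5% of the new sites with RUNX1 and 35.8% of all Phase 1 p300 peaks. With sgCbfb, which targets the partner of the RUNX factors, 233 sites (1.92%) had one, against 3.78% of the new sites with RUNX1 and 29.8% of all. Both lists are shorter than the Phase 1 Med12 list of cells without guides (19053 and 18099 against 39132 peaks). The paper states that cells lacking Cbfb, Ctcf or Med12 were hard to obtain in number and gave noisier ChIP-seq data. Peaks are 255 bp wide in the sgCont list and 311 bp in the sgCbfb list, so overlaps of 1 bp come more easily with sgCbfb. At sites that had Phase 1 Med12, the order of the guides changed with the Med12 score. In the lowest of 5 equal classes of that list's score, sgCbfb peaks lay on 2.05% and sgCont peaks on 0.182% of the 2197 new sites without RUNX1, and on 2.65 and 1.35% of the new sites with RUNX1. In the second class the values were 2.64 and 0.391% without RUNX1 and 2.80 and 2.97% with it. In the upper 3 classes sgCont was the higher at the sites with RUNX1, at 12.2 against 3.88%, 35.1 against 4.08% and 70.1 against 14.6%. At those without RUNX1, sgCont was ahead by few sites: 9 against 7 of 211, 8 against 7 of 65 and 6 against 3 of 20. The intervals of these 3 pairs overlap, so the order of the guides there is not settled. None of these differences was tested. Of the 64 sites with an sgCont peak, 42 had a RUNX1 or LP p300 peak within 1 kb.

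CTCF was found at few of the new sites without RUNX1, and most of those also had it in LP, as did most p300 peaks with CTCF. Phase 1 CTCF peaks lay on 893 sites (7.35%, 6.90 to 7.83%), against 473 (5.79%) of the new sites with RUNX1, an odds ratio of 1.29 (1.15 to 1.45; adjusted exact p = 1.41e-05). At constant sites without RUNX1 the share was 32.8% (587 sites), an odds ratio of 0.163 for the new sites (adjusted exact p = 1.51e-172). Over all Phase 1 p300 peaks it was 15.5%, and 15.2% for LP CTCF. Of the 893 sites, 730 (81.7%) also had an LP CTCF peak and 163 did not, against 6402 of 7600 (84.2%) over all Phase 1 p300 peaks with CTCF, and 11 sites had CTCF in LP only. The CTCF peaks had a median score of 129.1, against 55.4 at the new sites with RUNX1 and 188.6 at the constant sites without RUNX1. CTCF was on 4.58% of the sites with Med12 (161 of 3517) and 8.49% of those without (732 of 8625). In all, 7893 sites (65.0%) had neither Med12 nor CTCF in Phase 1. Over all Phase 1 p300 peaks, 72.8% had Phase 1 Med12 and 15.5% Phase 1 CTCF. No peak of any other list lay on 7796 sites (64.2%). The rule partly fixed that count, since it left out every site with an LP p300, LP RUNX1 or Phase 1 RUNX1 peak.

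Notch1-IC was on 21 of the 12142 sites (0.173%, 0.113 to 0.264%), counting peaks of Phase 1 or Phase 2, against 66 of the 8174 new sites with RUNX1 (0.807%) and 0.69% of all Phase 1 p300 peaks. The odds ratio was 0.213 (0.13 to 0.348; adjusted exact p = 3.31e-11), and 0.609 (adjusted exact p = 0.164) with classes matched on p300 score, where it did not pass the threshold. At a score of at least 30 the odds ratio was 0.182 (adjusted exact p = 2.44e-08). The Notch1-IC lists are short, with 152 peaks in Phase 1 and 352 in Phase 2. All 21 sites had a Phase 2 peak, and 1 of them, 32.1 kb before the start of Agfg1, had a Phase 1 peak too (Notch1-IC score 15.4 in Phase 1 and 105.3 in Phase 2). Of the 21, 13 had Phase 1 Med12 and 5 an RBPJ string. LP Notch1-IC peaks, found at 2.87% of all Phase 1 p300 peaks, lay on 4 of the sites (0.0329%), nearest to Gtf2ird2, Adssl1, Camk2b and Def8.

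Sites with Notch1-IC were nearest to Prkag1 (p300 score 139.6, Notch1-IC score in Phase 2 18.6), which encodes a subunit of AMP-activated kinase, Rnf157 (127.3 and 55.2), Rreb1 (80.3 and 25.2), a zinc finger factor, Aldh1b1 (62.4 and 24.1) and Iftap (62.1 and 43.2). The next by p300 score were Il6ra (58.4 and 16.6), the interleukin-6 receptor gene, Slc23a4 (50.0 and 16.3), Agfg1 (38.8), Nln (36.4 and 15.2) and Wdr37 (25.8 and 38.9). The Rnf157 site printed above lacked Med12 and had its RBPJ and RUNX strings within 1 window, and a RUNX1 peak of Phase 1 lay 276 bp away. None of the 10 is nearest to a gene of the Notch target list below.

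**Figure D3:**
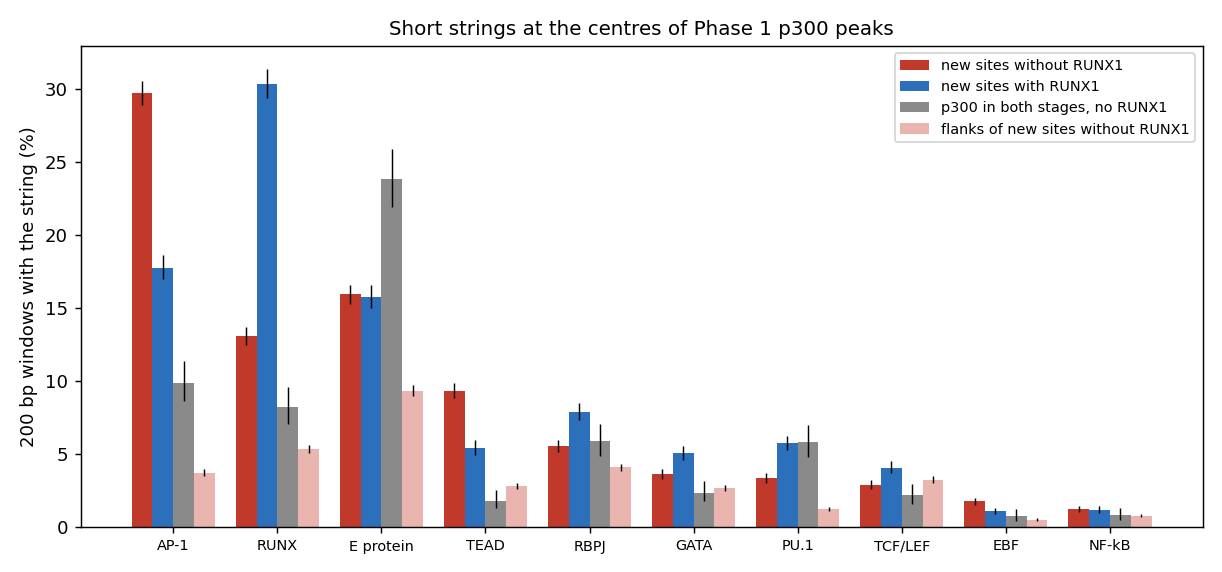
Share of 200 bp windows at peak centres (y axis, %) that hold each short string on either strand, for 3 classes of Phase 1 p300 peaks and for flanking windows 2 kb from the new sites without RUNX1, with 95% Wilson intervals over windows. AP-1 and TEAD strings have their tallest bars at the new sites without RUNX1 (29.7% and 9.31%).

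The DNA at these sites was rich in AP-1 and TEAD strings. Exact strings were searched on both strands of the central 200 bp, and a match is a string of letters, not a bound site. The AP-1 string TGACTCA, of the Jun and Fos family, was in 3608 of 12141 windows (29.7%, 28.9 to 30.5%). It was in 17.8% of the new sites with RUNX1 (1451 windows; odds ratio 1.96, 1.83 to 2.10, adjusted exact p = 5.98e-85), in 9.88% of the constant sites without RUNX1 (3.86, 3.29 to 4.52, adjusted exact p = 2.51e-81) and in 14.5% of all Phase 1 p300 peaks. TEAD factors are the DNA-binding partners of YAP and TAZ, and their string ACATTCC was in 9.31% of the windows (1130). The share was 5.41% at the new sites with RUNX1 (odds ratio 1.79, 1.60 to 2.01, adjusted exact p = 7.45e-25), 1.79% at the constant sites without RUNX1 (5.64, 3.96 to 8.04, adjusted exact p = 2.36e-35) and 4.01% over all. Either string was in 36.6% of the new sites without RUNX1 (4438), 22.1% of the new sites with RUNX1, 11.6% of the constant sites without it and 8.18% of the constant sites with it.

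The AP-1 string was in 26.4, 30.9, 35.1, 35.3 and 21.1% of the sites from the lowest to the highest score class, and in 7.58, 13.3, 18.7, 28.1 and 23.7% of the new sites with RUNX1. The difference was therefore widest among weak peaks, and the 2 classes of site came close in the highest. The AP-1 string was in 29.8% of the sites with Phase 1 Med12 and 29.7% of those without. It was in 18.5% of the sites with Phase 1 CTCF and 30.6% of those without, and neither pair of values was tested. Around the peak centres, the string was in 11.1 and 11.3% of the 50 bp bins on either side of the centre and in 0.848 and 0.939% of the outermost bins on the left, so it was concentrated at the middle of the peaks. Flanking windows 2 kb away held AP-1 at 3.71% (8.02 times less than the centres) and TEAD at 2.82% (3.30 times less).

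**Figure D4:**
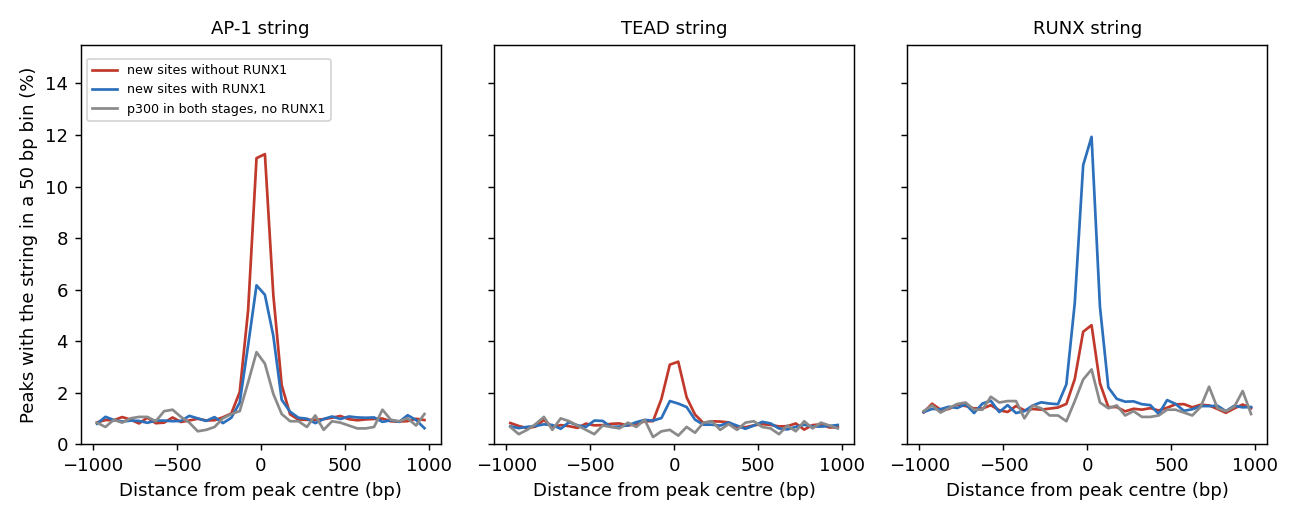
Share of peaks with the AP-1, TEAD or RUNX string (1 panel each) in each 50 bp bin (y axis, %) against distance from the peak centre (x axis, bp, to 1000 bp on each side), with 1 line for each of 3 classes of Phase 1 p300 peaks. At the new sites without RUNX1 the AP-1 string peaks at the centre at 11.1 to 11.3% and falls below 1% at the edges.

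RUNX strings were present at some of these sites although no RUNX1 peak was called. The strings TGTGGTT and TGCGGTT were in 1584 windows (13.0%), against 8.21% of the constant sites without RUNX1 (odds ratio 1.68, 1.41 to 2.0, adjusted exact p = 2.65e-09) and 20.4% over all Phase 1 p300 peaks. The new sites with RUNX1, which were selected for RUNX1, had 30.4%, given as a description. In the sites with no RUNX1 or LP p300 peak within 1 kb the share was 13.1%, so the share was as large without neighbouring peaks. The centres held 2.45 times more of them than the flanks (5.32%). A RUNX string and an AP-1 string stood together in 298 of the 12141 windows, as in the Lgals3bp window. Singly, RUNX strings were in 1584 of these windows and AP-1 strings in 3608. Whether they stood together more or less often than these counts imply was not tested.

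PU.1, GATA, TCF/LEF and RBPJ strings were scarcer than at the new sites with RUNX1. The PU.1 string GAGGAAGT was in 3.34% of the windows, against 5.71% (odds ratio 0.569, adjusted exact p = 1.34e-15) and, at constant sites without RUNX1, 5.81% (0.56, adjusted exact p = 1.51e-06). AGATAAG, bound by GATA factors, was in 3.60% against 5.05% (0.702, adjusted exact p = 8.65e-07), and ATCAAAG, bound by TCF and LEF factors, in 2.87% against 4.06% (0.697, adjusted exact p = 6.37e-06). The RBPJ string GTGGGAA was in 5.54% against 7.89% (0.685, adjusted exact p = 7.48e-11). Against the constant sites without RUNX1, GATA was more frequent (2.35% there, odds ratio 1.55, adjusted exact p = 0.00665, not past the threshold among peaks of score at least 30), and neither RBPJ (5.86% there, 0.942, interval 0.762 to 1.16, adjusted exact p = 0.581) nor TCF/LEF (2.18% there, 1.33, 0.949 to 1.85, adjusted exact p = 0.117) differed past the threshold. All Phase 1 p300 peaks held these strings at 6.88% for PU.1, 3.04% for GATA, 2.49% for TCF/LEF and 5.38% for RBPJ. PU.1, GATA3 and TCF1 act in early T cell progenitors, and RBPJ is the DNA-binding partner of Notch1-IC.

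Of the other strings, which were not tested, the EBF string was in 1.75% of the windows, against 1.06% of the new sites with RUNX1 and 0.9% over all, and 3.59 times as often at the centres as in the flanks, in cells whose line lacks Ebf1. The E protein string CAGCTG was in 15.9%, against 15.7% and 18.4%. The NF-kB string (GGGANTTCC) was in 1.19% against 1.23% over all, and CREB (TGACGTCA) in 0.445% against 1.11% over all. The CTCF string was in 0.865% of the windows against 1.11% over all, and in 103 of the 893 sites with Phase 1 CTCF (11.5%), among them the Dcaf11 site with a CTCF score of 313.0. It was in 2 of the 11248 windows without a CTCF peak. At least 1 of the 12 strings was in 7848 windows (64.6%), given without a background share. Short strings also occur away from peaks, as CAGCTG did in 9.32% of the flanking windows. The median GC content was 47.0%, close to the 48.0% of the new sites with RUNX1 and under the 50.0% and 53.5% of the constant sites without and with it.

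These sites lay within genes and between them, far from starts. Introns held 5702 (47.0%) and intergenic sequence 5484 (45.2%), exons 0.881% and transcription end sites 1.33%. Promoters held 497 (4.09%), against 389 (4.76%) of the new sites with RUNX1 (odds ratio 0.854, 0.746 to 0.978, adjusted exact p = 0.0291), 10.5% of the constant sites without RUNX1 (0.364, adjusted exact p = 3.31e-25) and 19.2% of all Phase 1 p300 peaks. The difference from the new sites with RUNX1 went away once scores were considered (odds ratio 1.04 with classes matched on score, adjusted exact p = 0.595). The median distance to the nearest start was 24.6 kb (interquartile range 8.77 to 58.5), against 23.4 kb, 13.4 kb and 8.4 kb at the new sites with RUNX1 and the constant sites without and with it. In the highest score class 27.5% of the sites were in promoters, and in the lowest 3.47%.

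The nearest genes numbered 6674, which is 41.5% of the 16089 genes named for any Phase 1 p300 peak. Of these, 4092 had 1 site, 370 had at least 5 and 32 at least 10. Foxp1, which encodes a forkhead factor of lymphoid and other cells, had the most, 16 sites, 2 of them with Phase 1 Med12, and 28 LP p300 peaks were nearest to it as well. A730004F24Rik and Cdkal1 followed with 15 each, 6 of them with Med12 in either case, and Cln8 had 14. Sites nearest to 6820426E19Rik, 9430078K24Rik, 4921525O09Rik, Angpt1, Pakap and Rybp numbered 13 each, as did those of Plpp3, which tied with them. The genes differed in whether p300 was there before. At Angpt1, the gene of the angiopoietin ligand of Tie2, 1 LP p300 peak preceded 24 Phase 1 peaks, and at Plpp3, the gene of a lipid phosphatase, there was no LP peak and all 13 Phase 1 peaks were new and without RUNX1, 7 of them with Med12.

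Few of the sites were nearest to T lineage genes. From a list of 31 such genes, 15 had 31 sites (0.256% of the sites), against 20 genes and 53 sites (0.65%) of the new sites with RUNX1 and 211 peaks (0.43%) of all Phase 1 p300 peaks. Of all genes with a Phase 1 p300 peak, 41.5% had a site, so the list's 15 of 31 genes was not below the background. Tcf12, the gene of the E protein HEB, had 8 sites, 3 with Phase 1 Med12, and its highest-scored site (61.7, Med12 50.9) lay in intron 3 of 19 with a RUNX string. Ets1 had 4 sites without Med12, and Id3, an inhibitor of E proteins, had 3, of which 1 had Med12. Tcf7, Lef1, Tox and Zfpm1 had 2 each, and Gata3, Satb1, Cd247, Zap70, Rag1, Cd7, Cd28 and Ctla4 had 1 each. The highest scores were at Zfpm1 (189.0, with Med12 134.9), which encodes the GATA cofactor FOG1, and 283 kb after the start of Gata3 (162.2, without Med12). Next was the Cd7 promoter (107.9), with Med12 in Phase 1 cells given sgCont (32.2) but not in those without guides. The Cd7 site lay 167 bp from a Phase 1 RUNX1 peak, 128 bp from an LP RUNX1 peak and 207 bp from an LP p300 peak. For the Gata3 site these gaps were 1055, 1014 and 1046 bp, and for the Zfpm1 site 2203, 2210 and 2223 bp. The Zap70 site (22.3) had CTCF scores of 302.0 in Phase 1 and 270.6 in LP, and the Satb1 site (21.2) 163.3 and 136.1. Of the 31 sites, 7 had Med12 and 5 had CTCF in Phase 1.

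Of a list of 14 direct targets of Notch, 5 had 7 sites (0.0578%), of which 1 had Med12, while 10 had 27 new sites with RUNX1 and 13 had 68 of all Phase 1 p300 peaks (0.139%). Nrarp, a feedback inhibitor of Notch, and Tcf7, the gene of TCF1, had 2 sites each (highest scores 33.6 and 27.3), and Heyl (21.1), Dtx1 (25.2, with Med12) and Gata3 had 1 each. Stem, progenitor and myeloid genes had 19 sites (0.157%, against 0.255% over all Phase 1 p300 peaks) at 11 of 22 genes, with 5 at Meis1, a homeobox gene of stem cells, and B lineage genes 11 (0.0908 against 0.0999%) at 6 of 15, with 5 at Ebf1 (highest score 38.7, 2 with Med12), the gene deleted in this line. Innate lymphoid genes had 10 (0.0825 against 0.102%) at 6 of 14, with 3 at Nfil3. Genes of the AP-1 family, whose string was frequent, had 23 (0.190 against 0.265%) at 7 of 17, with 12 at Maf and 5 at Jun. Genes of the TNF and NF-kB pathway had 15 (0.124 against 0.196%) at 8 of 20, with 6 at Tnfaip3, the gene of the inhibitor A20 (highest score 93.7).

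**Figure D5:**
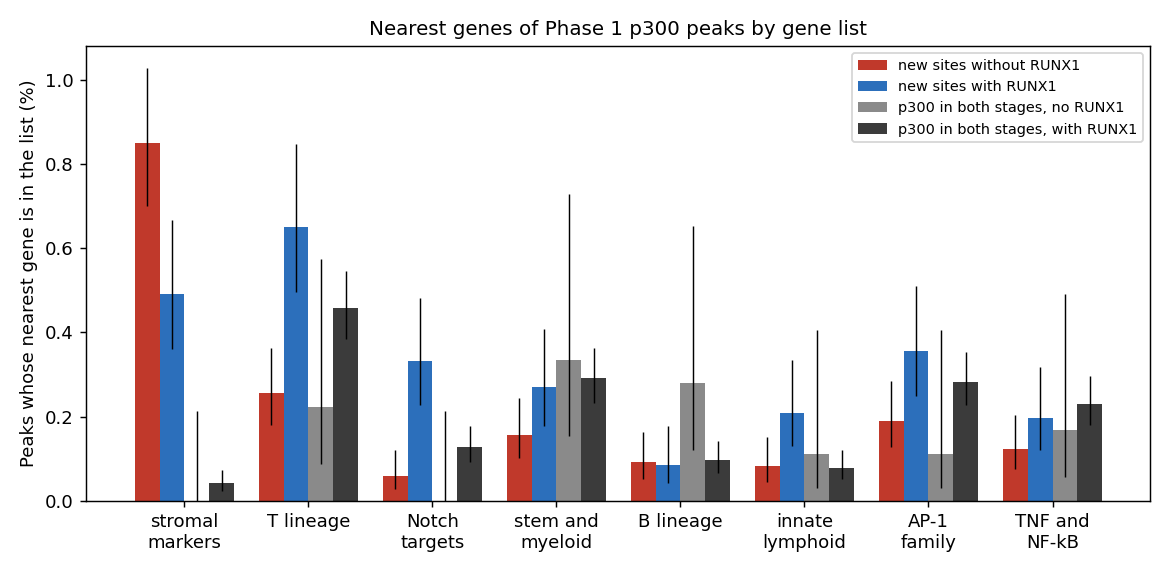
Share of Phase 1 p300 peaks whose nearest gene is in each fixed list (y axis, %), for classes of p300 peak, with 95% Wilson intervals over peaks. Stromal marker genes take 0.85% of the new sites without RUNX1 and 0.041% of the constant sites with RUNX1.

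Stromal marker genes, the longest of the fixed lists, had the most sites. From this list of 38 marker genes of mesenchymal cells such as OP9, chosen because Phase 1 cells share their culture with stroma, 26 genes had 103 of these sites (0.85%, 0.70 to 1.03%), against 154 (0.314%) of all Phase 1 p300 peaks. The list also took 40 of the new sites with RUNX1 at 19 genes (0.49%), 11 of the constant sites with RUNX1 (0.041%) and 0 of 1789 constant sites without RUNX1, which allows a share of up to 0.168% (3 counts of the total). Of the LP p300 peaks 18 of 36117 were nearest to these genes. LP cells grew on stroma too, and the sources used here do not give the amount of stroma in the ChIP material of either stage. Cald1, a cytoskeletal gene, had 11 sites, Cxcl12, a chemokine gene of marrow stroma, and Tead1, a TEAD factor gene, 9 each, Pparg, the regulator of fat cells, 8, and Twist2, a mesenchymal factor gene, 7. Defining markers were among those with sites, as Col1a2 (5), Col3a1 (2) and Pdgfrb (1), while Fn1, Pdgfra, Tcf21, Dcn and Lum had no p300 peak in either stage.

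By nearest gene, the highest-scored stromal sites were those of Pparg (77.3, with Med12 42.5) and the Ccn1 promoter (75.3, without Med12). Next came Col3a1 (63.4, Med12 22.0), at 44.6 kb after the start, and Twist2 (61.8, Med12 17.6), at 155 kb after it. Of the 103 sites, 44 (42.7%) had Phase 1 Med12, 25.2% an AP-1 string and 13.6% a TEAD string. None of the 103 had a Med12 peak with sgCont or sgCbfb, which allows a share of up to 2.91% (3 counts of the total). Such peaks were rare at the new sites without RUNX1 as a whole, with 64 (sgCont) and 233 (sgCbfb) of 12142. The count of 0 is therefore not a trait of the stromal marker sites. In cells without guides, Med12 had 93 peaks nearest to these genes in Phase 1 and 12 in LP, and RUNX1 56 and 20, whereas CTCF had 87 and 85. The Phase 1 Med12 lists of cells with guides had 4 of 19020 peaks (0.021%, sgCont) and 3 of 18060 (0.0166%, sgCbfb) there. In Phase 1 cells without guides the share was higher, at 93 of 39070 Med12 peaks (0.238%), and the cause of that difference was not tested. LP Med12 of cells without guides had 0.0401%, and the Phase 1 RUNX1 list with sgCont 1 of 1547. Peaks at stromal markers were thus more numerous in Phase 1 than in LP for p300, Med12 and RUNX1 in cells without guides. For Med12 in cells with guides there is no LP list, so the stages cannot be compared there. The part of OP9-DLL4 cells in the result was not tested.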

How the data were processed

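ChIP-seq of 38 mouse samples (19 groups of 2 replicates) was read from 17 peak lists. The authors made them from reads converted with bcl2fastq (the sources give different versions) and aligned with Bowtie (version 1.1.1), as the submitters' processing notes name them, by calling peaks with HOMER on the mm10 build and keeping peaks reproducible between replicates, 1 list per group. The deposited score is the caller's value for each peak, at least 15, on a scale not given in the sources used here. The study's methods state a read depth per sample, but the lists give no read counts, so the intervals here cover counting error over peaks. The 4 input samples have no list and were not used here.

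Overlap meant at least 1 shared bp. Shares have Wilson intervals at 95%, and classes were compared with Fisher's exact test (two-sided, scipy 1.17.1) and Benjamini-Hochberg adjustment over 21 tests, with an adjusted p under 0.05 as threshold. Matched odds ratios are Mantel-Haenszel estimates over 5 score classes with the exact conditional test. Nearest genes, annotations and distances are those in the lists. Strings were counted in the central 200 bp with pysam 0.24.0, on RefSeq GRCm38.p6, for 12141 of the 12142 sites, as 1 lies on a sequence that was not searched. The overlap and test code was tested on simulated data. The sites and lists were chosen with earlier results of these data known. Single sites were named by rule: the 10 highest scores, the 5 highest with Phase 1 Med12 and no LP Med12, the 10 highest with Notch1-IC, the highest at each Notch target and T lineage gene and the 3 nearest to the rule's limit on each side. Genes named were the 10 with most sites and fixed-list genes with a site, and sequences those of the top 3 and of the highest-scored site with each of 5 strings. One site that this rule names is not reported here. Values given for stromal marker sites and for the sites far from RUNX1 and LP p300 peaks, and 4 of the sequences, were chosen after seeing the data. Alternatives planned were a score of at least 30, matching on score, no promoters, no RUNX1 peak within 1 kb, equal list lengths, an overlap of 100 bp and a 100 bp window. Added after seeing the data were no RUNX1 or LP p300 peak within 1 kb, and peaks nearest to stromal marker genes left out. Both added settings count among the 179 recomputed tests below.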

Additional observations from a re-analysis of the deposited data

Results flagged for a closer look

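Med12 peaks of cells with sgCbfb, which no tested comparison used, lay on 233 of the new sites without RUNX1, more than the 64 with the control guide sgCont. The difference was not tested, and each list pools 2 replicates. Of the 233 sites, 89 had a Phase 1 Med12 peak of cells without guides, 123 had Phase 1 CTCF, 25 were in promoters, 24 also had an sgCont peak and 44 had a RUNX1 or LP p300 peak within 1 kb. Over all 12142 new sites without RUNX1, 29.0% had Phase 1 Med12, 7.35% Phase 1 CTCF and 4.09% a promoter annotation. A RUNX1 or LP p300 peak lay within 1 kb of 8.77%. The constant sites without RUNX1 had the same order, with sgCbfb peaks at 17.5% and sgCont peaks at 5.70%, and the new and the constant sites with RUNX1 the opposite, with 3.78 against 10.5% and 51.2 against 61.6%. This order changed with the score of the Phase 1 Med12 peak. In its lowest class sgCbfb was the higher at the new sites without RUNX1 (2.05 against 0.182%), the new sites with RUNX1 (2.65 against 1.35%) and the constant sites with RUNX1 (24.0 against 9.77%), and in the highest class sgCont was the higher at all 3 (6 against 3 of 20 sites, 70.1 against 14.6% and 96.6 against 71.4%).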

How the results depend on the processing

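Of 179 recomputed tests, 165 kept their direction and their side of the threshold. The comparison of Med12 with the constant sites without RUNX1 turned from an odds ratio of 0.965 to 2.14 at a p300 score of at least 30 (59.8 against 41.0%), 1.18 with matching on score and 1.65 with as many top-scored Phase 1 peaks as in LP (51.5 against 39.2%). Notch1-IC against the new sites with RUNX1 became 0.609 with matching (adjusted exact p = 0.164). Promoters against the new sites with RUNX1 gave 0.998 at a score of at least 30, 1.04 with matching, 0.933 with equal list lengths and 0.874 with an overlap of 100 bp, none past the threshold. RBPJ strings became significantly scarcer than at constant sites without RUNX1 at a score of at least 30 (0.682), with equal list lengths (0.733) and in 100 bp windows (0.681). GATA strings against the same sites lost their call under these 3 settings (1.1, 1.25 and 1.35). The number of sites fell to 3924 at a score of at least 30 and to 5207 with equal list lengths, since fewer p300 peaks enter. The cause of the other changes was not tested. No paired analysis was possible because each list pools its replicates, and for the same reason no replicate could be left out. The calling limit bounds every absence: a site without a peak may lie under it.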
